A study of Mus musculus with 9 samples.

Results

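The 6 mammary tumors that received Talazoparib, 3 by i.v. injection of the free drug (i.v. TLZ) and 3 as the nano-liposome formulation (NanoTLZ), were pooled and compared with the 3 tumors that received saline, so that all 9 tumors of the series were used. Tumors were assigned by their labels, which begin with B for i.v. TLZ, with C for NanoTLZ and with A for saline. The comparison addresses what the tumors of both formulations had in common. Every mouse, saline controls included, had the genotype Brca1Co/Co;MMTV-Cre;p53+/-, in which a Cre recombinase under the mouse mammary tumor virus promoter deletes Brca1 mainly in mammary epithelium and 1 copy of p53 is missing in every cell. Treatment began when a tumor measured 4 to 5 mm and consisted of 5 doses, 3 times a week, with 0.33 mg/kg of Talazoparib per dose in both treated groups. The tumors were harvested after the doses, and RNA of the whole tumor was sequenced, 1 library per tumor. The 9 sequenced tumors include none from mice given empty nanoparticles, so the liposome itself has no control for the NanoTLZ group.

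Talazoparib inhibits PARP1 and PARP2, enzymes that bind breaks in DNA and mark nearby proteins with chains of ADP-ribose, and it holds the enzymes on the DNA. A replication fork that runs into a held enzyme needs homologous recombination to be restored, and BRCA1 is required for that pathway. Cells that lack BRCA1 therefore accumulate damage in S phase, stop in the cell cycle through p53 and the checkpoint kinases, or die.

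The table held between 17538380 and 21194980 counts per tumor, and 15821 genes had enough counts to be tested. Levels are given below as CPM, the count of a gene per 1000000 counts of the normalized library, and compare a gene between tumors but not different genes with each other. A fold change is the log2 ratio of treated to saline tumors, fitted over the 6 treated and 3 saline tumors, and a gene was called when its Benjamini-Hochberg adjusted p from edgeR's quasi-likelihood test was under 0.05. Because RNA came from whole tumors, fewer cells of a type and less RNA per cell cannot be told apart. The epithelial genes Epcam (604 to 1368 CPM over the 9 tumors) and Krt8 (738 to 2623 CPM) were high throughout, as the label of a mammary tumor requires. Saline tumor A3688 stood apart. Its Spearman correlation with the other 8 tumors was 0.843 to 0.875, against 0.900 to 0.970 between the other tumors, and values without it are given beside the main results that it moved.

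Pooling the formulations gave 6 called genes, all lower after Talazoparib, and 0 higher genes, which is 0.0379% and 0.0% of the genes tested. All 6 encode proteins of skeletal muscle. At an unadjusted p under 0.05 there were 905 higher genes (5.72%) and 1398 lower genes (8.84%), a split that became 1090 and 1084 under upper quartile normalization and 823 and 810 without A3688. The groups did not overlap in 444 genes with the 6 treated tumors on top (2.81%) and in 421 with the 3 saline tumors on top (2.66%). The median fold change of all genes tested was -0.04, and 52.9% lay below 0. DESeq2 called 190 higher (1.12%) and 177 lower (1.04%) genes among 17035, and limma-voom called 0 and 0, with 987 and 1057 at an unadjusted p under 0.05. The description below therefore leads with levels in each tumor, and differences that did not pass the adjustment are stated as such. Counts in the gene lists below are to be read against these shares of all genes. The lists were chosen with earlier results of these data known.

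The 6 called genes encode parts of the fast muscle fiber. Myh4 (ENSMUSG00000057003, chr11:67238029-67260446 of GRCm38), the myosin heavy chain of the fastest fibers, had 6.01, 45.9 and 213 CPM in saline tumors A3673, A3685 and A3688. In the treated tumors it had 0.0 to 0.216 CPM with a median of 0.0791. It fell by 9.65 on the log2 scale (SE 1.02, edgeR adjusted p 0.0171). In counts, 5709 reads in 3 saline tumors faced 12 reads in 6 treated tumors, with 4 as the most in any treated tumor.

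Pvalb (chr15:78191114-78206400), the calcium buffer parvalbumin of fast fibers, had 3.43, 6.39 and 26.1 CPM in saline, and 5 of the 6 treated tumors had no read. Its pooled level was 702 times higher in saline, with an exact 95% interval of 194 to 5805 that covers counting error only (762 reads against 2). The muscle actin gene Acta1 (chr8:123891769-123894751) had 5.21, 68.7 and 231 CPM in saline and 0.0 to 0.466 CPM after treatment, and it fell by 8.38 (SE 1.03, edgeR adjusted p 0.0231). For each of these genes A3673 was lowest and A3688 highest among the saline tumors, and no treated tumor reached the lowest saline tumor.

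The other called genes showed the same order. Myl1 (chr1:66924295-66945404), an essential myosin light chain, had 3.03, 8.39 and 36.5 CPM in saline and at most 0.193 CPM after treatment, and fell by 7.75 (SE 0.93, edgeR adjusted p 0.0231). Ckm (chr7:19404776-19422841), the muscle creatine kinase that buffers ATP, had 1.54, 10.3 and 28.7 CPM in saline and at most 0.219 CPM after treatment, and fell by 7.47 (SE 0.98, edgeR adjusted p 0.0290). Mybpc2 (chr7:44501699-44524656), the fast form of myosin binding protein C, remained measurable after treatment at 1.26 to 2.98 CPM, against 8.93, 19.2 and 44.9 CPM in saline, and fell by 3.64 (SE 0.48, edgeR adjusted p 0.0290).

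Of the 38 genes of the skeletal muscle list, 30 were tested, all 30 had a fold change below 0, 22 had an unadjusted p under 0.05 and 15 were below saline in every treated tumor. The median fold change of the list was -2.68, against -0.04 for all genes tested. Among muscle members without overlap, those that came next and were not called were Actn3, Xirp2, Atp2a1, Myoz1, Tnnt3, Mylpf and Nrap. Their fold changes ran from -9.26 to -4.55 and their edgeR adjusted p from 0.0518 to 0.0777. Mylpf and Nrap were at -2.81 and -2.74 without A3688. They encode, among others, the fast fiber actinin (Actn3), the calcium pump of the sarcoplasmic reticulum (Atp2a1) and fast troponin T (Tnnt3). DESeq2 called 22 muscle genes lower. The list median was -1.42 without A3688. Over all genes tested, not only muscle, 2 were called lower without A3688, 26 without A3673 and 35 without A3685. In the same order, 0, 2 and 7 were called higher. Without any 1 of the 6 treated tumors, 0 genes were called, with the 6 genes still at fold changes of -3.55 or below and their edgeR adjusted p between 0.0607 and 0.153. The summed level of the list was 208, 490.5 and 1379 CPM in the saline tumors and 85.8 to 242 CPM in the treated tumors, with overlap at A3673 and B3638, so muscle RNA also varied within the control group. The part of muscle tissue adjoining the dissected tumors in this difference was not tested.

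**Figure D1:**
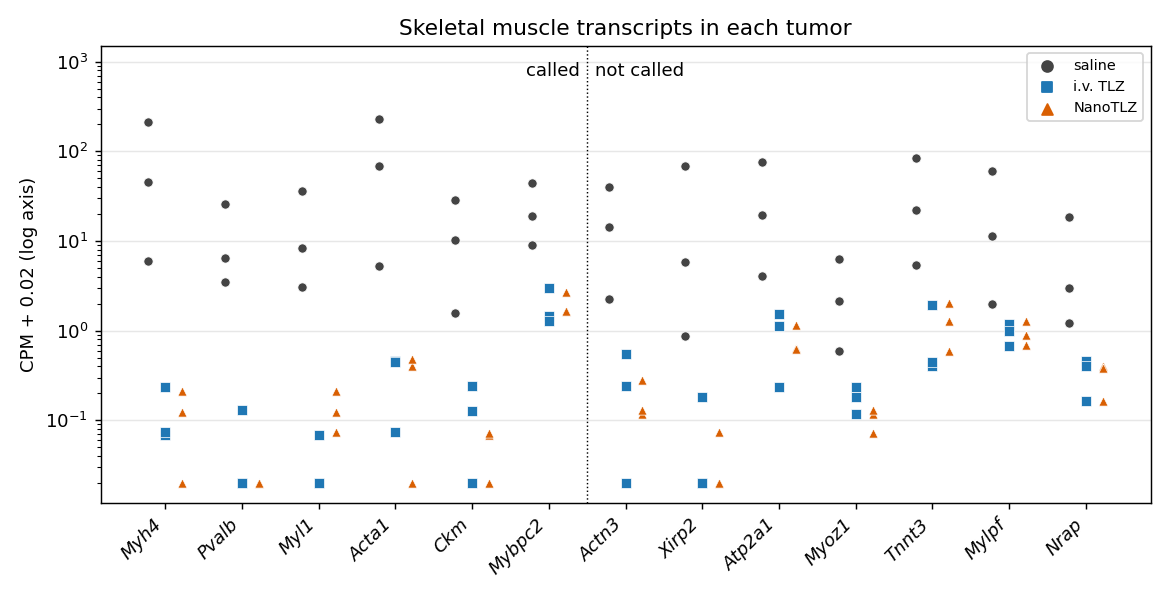
Levels of 13 skeletal muscle genes in each tumor, as CPM + 0.02 on a log axis, with circles for saline, squares for i.v. TLZ and triangles for NanoTLZ; a dotted line separates the 6 called genes from the 7 that were not called. The 3 saline tumors lie above the 6 treated tumors for each gene, which for the 7 genes not called was a condition of choice. Of the 30 muscle genes tested, 15 were below saline in every treated tumor. Points at 0.02 are tumors without a read.

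Erythrocyte genes had a median of -1.69, or -1.03 without A3688 (4 of 8 genes tested, 4 below 0). The hemoglobin gene Hba-a1 had 9.61, 10.5 and 24.3 CPM in saline and 0.144 to 7.51 CPM after treatment (log2 fold change -2.17, SE 0.77, edgeR adjusted p 0.265). Hba-a1 did not overlap between groups. Hbb-bs overlapped through tumor B3638 (13.4 CPM), and neither gene was called.

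The transcripts of the drug targets and of the deleted genes came next. Parp1, which encodes the main target, had 172, 135 and 156 CPM in saline and 52.3 to 127 CPM after treatment with a median of 103. Every treated tumor was below every saline tumor, but the fold change of -0.65 (SE 0.27) was not called (edgeR adjusted p 0.314). Parp2, the second target, had 15.6, 17.2 and 32.9 CPM in saline and 16.8 to 23.6 CPM after treatment. Its fold change was -0.15 (SE 0.28, edgeR adjusted p 0.833) with 9 tumors and 0.29 without A3688.

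Brca1 had 32.6, 29.6 and 42.7 CPM in saline and 9.46 to 31.5 CPM after treatment, with a fold change of -0.94 (SE 0.35, edgeR adjusted p 0.277). The counts are per gene, and reads of undeleted exons and of cells other than the epithelium are part of them, so the level of Brca1 does not check the deletion. Trp53 had 23.4, 34.6 and 45.6 CPM in saline. In 5 treated tumors it lay between 29.4 and 38.9 CPM, and in NanoTLZ tumor C3519 it reached 108 CPM. Its fold change of 0.39 (SE 0.45) became -0.08 without C3519.

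In the list of the PARP family and single-strand break repair, 23 genes were tested, 18 had a fold change below 0, 5 had an unadjusted p under 0.05 and the median was -0.36. The DNA ligase Lig3, partner of XRCC1 in nick sealing, had 100, 56.9 and 103 CPM in saline and 22.5 to 61.1 CPM after treatment, with overlap at C3698 (-1.18, SE 0.33, edgeR adjusted p 0.215). The replicative ligase Lig1 differed by -0.80 (SE 0.24, edgeR adjusted p 0.231). Oard1, which removes ADP-ribose from proteins, had 22.5, 26.2 and 40.4 CPM in saline and at most 21.3 CPM after treatment, with no overlap (-0.67, SE 0.25, or -0.36 without A3688). Hpf1, the cofactor that directs PARP1 to serine, had 162 CPM in A3688 and 36.7 to 42.5 CPM in the other saline tumors, and its fold change moved from -1.31 to -0.27 without A3688.

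Homologous recombination and Fanconi anemia genes, the pathway that repairs forks stalled by the drug, had lower levels as a list. Of 37 genes tested, 34 had a fold change below 0, 21 had an unadjusted p under 0.05 and 10 were below saline in every treated tumor, with a median of -0.94. Over all genes tested, 8.84% were lower at an unadjusted p under 0.05 and 2.66% were below saline in every treated tumor. Fancd2, which is monoubiquitinated at crosslinks, had 14.2, 9.25 and 44.1 CPM in saline and 4.51 to 7.08 CPM after treatment with a median of 6.06 (-1.93, SE 0.43, edgeR adjusted p 0.187, and -0.96 without A3688). Its partner Fanci had 12.6, 5.62 and 13.1 CPM in saline and 1.94 to 4.44 CPM after treatment (-1.52, SE 0.38). Neither gene overlapped between groups.

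The resection nuclease Exo1 differed by -1.25 (SE 0.32, edgeR adjusted p 0.213). Without A3688 the median of the list was -0.46, 32 of 37 genes had a fold change below 0 and 10 had an unadjusted p under 0.05 in this direction. DESeq2 called 5 members lower, where its share over all genes was 1.04%. Genes of end protection and end joining had a median of -0.30 over 16 genes, or -0.10 without A3688, and Xrcc5, which encodes the Ku80 subunit that binds broken ends, had 53.6, 24.5 and 39.2 CPM in saline and 11.8 to 23.1 CPM after treatment (-1.06, SE 0.29, edgeR adjusted p 0.215). Many genes of repair are made mainly in S phase, and the cell cycle lists follow. The part of cell cycling in the levels of repair genes was not tested.

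Mitotic genes had lower levels in treated tumors throughout the list. Of 48 genes of mitosis and G2/M, 48 had a fold change below 0, 38 had an unadjusted p under 0.05 and 9 were below saline in every treated tumor, with a median of -1.10. None was called by edgeR, and 9 were called lower by DESeq2. Top2a, the topoisomerase that separates sister chromatids, had 429, 241 and 325 CPM in saline and 71.2 to 158 CPM after treatment with a median of 123 (-1.51, SE 0.29, edgeR adjusted p 0.149). The highest treated tumor was well below the lowest saline tumor, and the fold change was -1.50 without A3688.

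Nuf2, a kinetochore subunit, had 38.9, 25.9 and 68.9 CPM in saline and 8.82 to 22.5 CPM after treatment. Mad2l1, the spindle checkpoint protein, had 31.5, 40.5 and 133 CPM in saline and 12.8 to 30.4 CPM after treatment (-1.71, or -0.77 without A3688), and Cenpe, a kinetochore motor, overlapped between groups with a fold change of -1.71 (SE 0.40). A3688 was the highest tumor for each of the 3. The proliferation marker Mki67 had 286, 101 and 940 CPM in saline and 54.3 to 160 CPM after treatment, so that its fold change was -2.17 (SE 0.54) with A3688 and -0.95 without it. Cdk1, the kinase that starts mitosis, went from -1.65 to -0.55 in the same step.

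Replication genes had the same direction. Of 52 genes tested, 51 had a fold change below 0, 36 had an unadjusted p under 0.05 and 11 were below saline in every treated tumor, with a median of -0.88. Clspn, the adaptor that activates the checkpoint kinase CHK1 at stalled forks, had 32.2, 26.8 and 33.3 CPM in saline and 8.63 to 21.4 CPM after treatment (-1.20, SE 0.30, edgeR adjusted p 0.212). The helicase subunit Mcm2 had 93.7, 82.6 and 174 CPM in saline and 35.3 to 75.2 CPM after treatment (-1.09, SE 0.28, or -0.67 without A3688). Rfc5, a subunit of the clamp loader, did not overlap between groups either (-1.45, SE 0.39, or -0.54 without A3688), and the ribonucleotide reductase subunit Rrm1 did (-0.85, SE 0.23).

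Leaving out A3688 reduced but did not reverse these lists. The medians were then -0.63 for mitosis with 48 of 48 genes below 0 and 17 at an unadjusted p under 0.05, and -0.50 for replication with 48 of 52 below 0 and 13 at an unadjusted p under 0.05, where all genes of that fit gave 46.6% below 0 and 5.03% lower at an unadjusted p under 0.05. The G1 cyclins and CDK inhibitors did not share the direction (median -0.14, 10 of 16 below 0, and 0.11 without A3688). Among them the p15 gene Cdkn2b had 31.1, 64.6 and 19.2 CPM in saline and 41.3 to 150 CPM after treatment (1.31, SE 0.47, edgeR adjusted p 0.267).

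The promoters of these genes are shown because 2 known sets of short words mark genes that are switched off when the cell cycle stops. The cell cycle homology region (CHR, TTTGAA), often beside CCAAT boxes, is bound by the DREAM and MMB complexes in genes of G2 and mitosis. E2F words (TTTGGCGC, TTTCCCGC or TTTCGCGC) are common in genes of S phase. Below are the 200 bases before the annotated start of 6 genes from RefSeq sequence of GRCm38.p6, 5′ to 3′ along the gene's strand, with CHR and CCAAT words on either strand in capitals in the first 4 and E2F words on either strand in capitals in the last 2. They were chosen for their words after the values were known.
Top2a, chr11:99024190-99024389, minus strand: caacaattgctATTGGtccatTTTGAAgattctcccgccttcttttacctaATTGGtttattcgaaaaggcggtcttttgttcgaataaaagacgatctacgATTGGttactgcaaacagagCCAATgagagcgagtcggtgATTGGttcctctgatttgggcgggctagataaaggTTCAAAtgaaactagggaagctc
Mki67, chr7:135716380-135716579, minus strand: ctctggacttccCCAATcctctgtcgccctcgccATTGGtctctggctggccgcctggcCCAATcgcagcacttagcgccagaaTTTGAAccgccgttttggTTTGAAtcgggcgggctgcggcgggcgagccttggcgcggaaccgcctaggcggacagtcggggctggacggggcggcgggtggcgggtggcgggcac
Cdk1, chr10:69352913-69353112, minus strand: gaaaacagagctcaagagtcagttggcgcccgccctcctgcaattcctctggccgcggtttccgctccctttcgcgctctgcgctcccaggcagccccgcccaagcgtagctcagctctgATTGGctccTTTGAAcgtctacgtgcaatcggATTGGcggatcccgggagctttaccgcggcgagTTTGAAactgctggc
Ccnb2, chr9:70421555-70421754, minus strand: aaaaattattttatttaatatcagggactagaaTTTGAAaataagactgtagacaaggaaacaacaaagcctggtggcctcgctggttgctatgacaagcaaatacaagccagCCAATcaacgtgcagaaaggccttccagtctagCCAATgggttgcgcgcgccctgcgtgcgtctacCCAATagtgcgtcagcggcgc
Mcm6, chr1:128359706-128359905, minus strand: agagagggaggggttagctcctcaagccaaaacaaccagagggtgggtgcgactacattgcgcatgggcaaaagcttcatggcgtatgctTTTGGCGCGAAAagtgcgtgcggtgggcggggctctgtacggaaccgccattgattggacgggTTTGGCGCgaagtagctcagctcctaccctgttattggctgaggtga
Cdc6, chr11:98907951-98908150, plus strand: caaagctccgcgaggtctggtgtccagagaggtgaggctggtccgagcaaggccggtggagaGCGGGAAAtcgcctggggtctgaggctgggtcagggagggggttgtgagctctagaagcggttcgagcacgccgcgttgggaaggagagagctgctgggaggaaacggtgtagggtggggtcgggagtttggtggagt

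Over windows of 300 bases (250 before to 50 after the start), 44 promoters of 41 of the 48 mitotic genes were found, of which 72.7% held a CHR word, 75.0% a CCAAT word and 65.9% both, against 12.3%, 37.1% and 4.96% of the 14823 promoters of genes tested. In the replication list (47 promoters of 41 genes) 31.9% held an E2F word against 3.12%, and 19.1% held a CHR word. Of the promoters of homologous recombination genes (31 promoters of 28 genes), 19.4% held an E2F word and 9.68% a CHR word. Over all 32851 promoters of the table the shares were 17.9% for CHR, 37.4% for CCAAT and 1.84% for E2F. Cdk1 and Ccnb2, which hold both words, overlapped between groups at fold changes of -1.65 (SE 0.47) and -1.07 (SE 0.43), as did Mcm6, a helicase subunit, at -1.20 (SE 0.38). Without A3688 these were -0.55, -0.38 and -0.77. The replication licensing factor Cdc6 had 31.8, 24.1 and 28.4 CPM in saline and 5.63 to 19.6 CPM after treatment and did not overlap (edgeR adjusted p 0.251). A word in a promoter is a description of the sequence, and binding was not measured here. For given lists these shares would be the same whatever the levels in these tumors. They were not related to the fold changes.

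**Figure D2:**
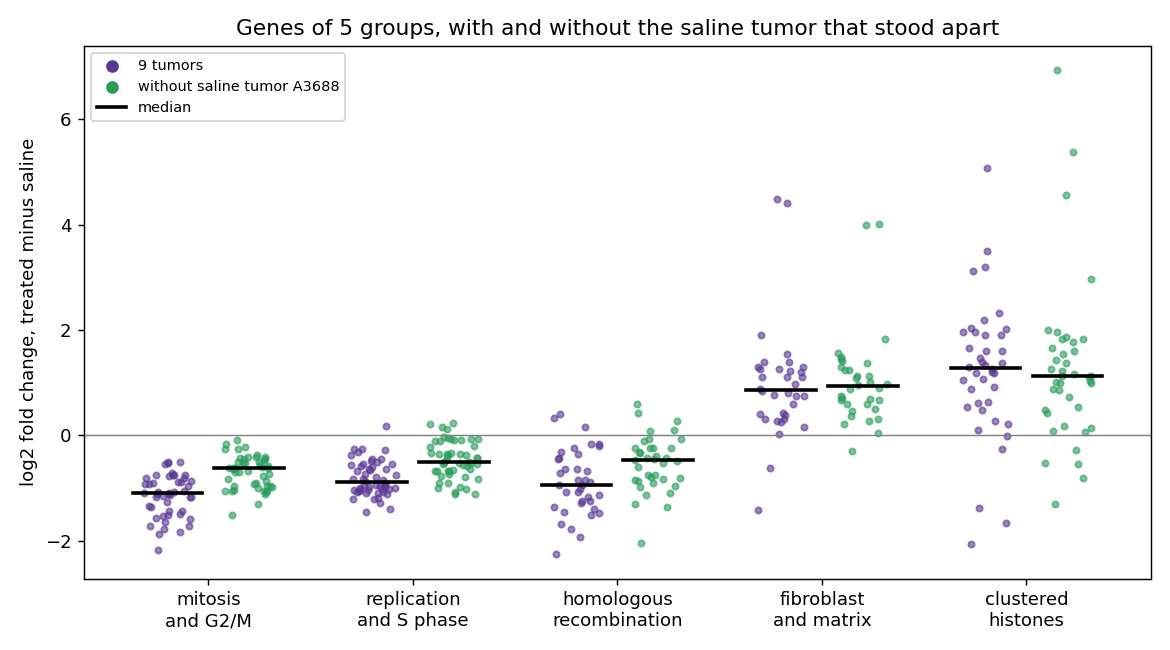
Log2 fold change (treated minus saline) of each tested gene in 5 lists, with 9 tumors (purple) and without saline tumor A3688 (green); black bars are medians. The mitosis points lie below 0 in both fits while their median moves from -1.10 to -0.63, and the fibroblast and histone medians stay above 0 at 0.87 and 0.93, and 1.28 and 1.12.

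Checkpoint and p53 target genes did not move as a list (median 0.07, 16 of 30 genes above 0), but 3 members were above saline in every treated tumor. The CDK inhibitor p21, encoded by Cdkn1a, had 46.1, 50.5 and 46.1 CPM in saline and 57.2 to 128 CPM after treatment with a median of 77.2 (0.81, SE 0.26, edgeR adjusted p 0.238). The stress gene Gadd45g had 29.5, 27.8 and 28.8 CPM in saline and 35.6 to 106 CPM after treatment (edgeR adjusted p 0.215). In both genes the saline tumors were close together and A3688 did not stand apart. Gadd45a had 13.4, 15.2 and 2.89 CPM in saline and 18.2 to 31.5 CPM after treatment (1.32, SE 0.46, edgeR adjusted p 0.260). The p53 and p63 target Perp, with a negative fold change, had 705 CPM in A3688 and 101 to 115 CPM in the other saline tumors, and its fold change was -0.48 without A3688.

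Ddit3, which encodes the endoplasmic reticulum stress factor CHOP, was among the 15 higher genes with the smallest p. These 15 were chosen only among genes whose groups did not overlap. Ddit3 had 18.2, 18.0 and 10.4 CPM in saline and 30.3 to 44.9 CPM after treatment (1.37, SE 0.26, edgeR adjusted p 0.149). Among antioxidant enzymes (median 0.23 over 23 genes), Sod3, the extracellular superoxide dismutase, had 9.16, 10.7 and 0.642 CPM in saline and 38.6 to 127 CPM after treatment (3.44, SE 0.77, edgeR adjusted p 0.187). Srxn1, which restores oxidized peroxiredoxins, differed by 0.82 (SE 0.22) without overlap. None of these genes was called.

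Of the 15 higher genes with the smallest p, 3 were histone genes. Hist1h2bc, an H2B gene, had 12.7 to 28.4 CPM in saline and 65.4 to 103 CPM after treatment with a median of 80.3 (2.05, SE 0.31, edgeR adjusted p 0.0591). The H4 genes Hist1h4h and Hist1h4i had 1.38 to 3.49 and 3.49 to 9.44 CPM in saline, and 9.24 to 29.8 and 14.7 to 31.6 CPM after treatment (3.11, SE 0.49, and 1.91, SE 0.42). A list of all clustered histone genes was added after these values were seen. Of its 67 genes 40 were tested, 35 had a fold change above 0, 20 were higher and 3 lower at an unadjusted p under 0.05, and 12 were above saline in every treated tumor, with a median of 1.28.

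The summed level of the 67 histone genes was 212, 113 and 116 CPM in the saline tumors and 279 to 508 CPM in the treated tumors, without overlap. This is the reverse of the replication and mitosis lists, with which histone genes of S phase are usually expressed together. The 3 lower genes included Hist1h2ap (2.58, 1.62 and 6.33 CPM in saline, 0.414 to 1.57 CPM after treatment, with a fold change of -2.07, or -1.30 without A3688) and Hist1h2ao. Most messages of clustered histones have no poly(A) tail, and how the libraries were selected is not given in the sources used here, so the values count the part of these messages that the libraries caught. Members of the family are near copies of each other, and the counting could split their reads. Of the 40 genes, 35 lie on chromosome 13, where saline tumor A3685 was low as a whole (described below). The list median ranged from 1.07 without A3685 to 2.27 without A3673.

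Identity genes of the luminal progenitor, the cell from which Brca1 tumors are thought to arise, had a negative median in treated tumors. Of 14 genes tested, 11 had a fold change below 0 and 5 had an unadjusted p under 0.05, with a median of -0.96 that was -0.52 without A3673 and -1.04 without A3688. Their summed level was 11696 CPM in A3673, 5455 and 4788 CPM in the other saline tumors and 3767 to 8302 CPM after treatment, with overlap. The stem cell factor receptor Kit had 315, 291 and 416 CPM in saline and 81.5 to 179 CPM after treatment with a median of 149 (-1.27, SE 0.26, edgeR adjusted p 0.176). The luminal transcription factors Elf5 and Ehf were on the same side, Ehf with a fold change of -0.93 (SE 0.21) and Elf5 at 66.8 to 104 CPM in saline and 31.1 to 52.9 CPM after treatment. None of the 3 overlapped between groups, and DESeq2 called the 3.

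The basal and myoepithelial list showed how far A3688 can set a fold change. Krt5, the basal keratin, had 1849 CPM in A3688, 4.86 and 3.15 CPM in the other saline tumors and 2.30 to 72.9 CPM after treatment, and its fold change went from -5.13 (SE 1.65) to 2.16 without A3688. Trp63, the basal cell regulator, went from -2.23 to 0.32, and the repressor Id4 from -3.76 to 1.68. The basal list had a median of 0.17 over 16 genes, the hormone-sensing luminal list -0.23 over 12 and 1.11 without A3688, and the basal-like and stem cell factors -0.40 over 18 and -0.036 without A3688.

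In the last of these lists Bcl11a, a regulator of basal-like breast cancer, did not depend on A3688 for its direction. It had 20.2, 9.96 and 128 CPM in saline, and the 6 treated tumors were within 5.96 to 6.73 CPM (-3.05, SE 0.59, edgeR adjusted p 0.149, and -1.22 without A3688). Myb, a proto-oncogene of progenitor cells, overlapped at B3700 with a fold change of -2.85 (SE 0.75), or -1.19 without A3688. The milk protein list (median -1.26 over 10 genes) was not stable, with a median of 0.97 without A3673. The casein gene Csn1s1 had 1659 and 1176 CPM in A3673 and A3685, 1.01 CPM in A3688 and 32.5 to 194 CPM after treatment.

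Epithelial junction and keratin genes had a median of -0.34 over 26 genes. The tight junction gene Cldn1 had 68.7, 38.9 and 68.4 CPM in saline and 8.75 to 29.3 CPM after treatment (-1.49, SE 0.34), and the epithelial regulator Grhl1 differed by -1.04 (SE 0.30), both without overlap. Outside the lists, Sorbs2, an adaptor of the actin cytoskeleton, had 217, 154 and 229 CPM in saline and 38.9 to 84.9 CPM after treatment (-1.61, SE 0.25, edgeR adjusted p 0.0591). The estrogen-regulated growth inhibitor Rerg had 18.9, 14.6 and 33.1 CPM in saline and 3.06 to 7.09 CPM after treatment (-2.16, SE 0.37, edgeR adjusted p 0.0971). Among lower genes without overlap, these 2 had the smallest p outside muscle.

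Genes of the stroma had a positive median. Of 34 genes of fibroblasts and matrix, 32 had a fold change above 0, 14 had an unadjusted p under 0.05 and 6 were above saline in every treated tumor, with a median of 0.87. Col6a1, a chain of type VI collagen, had 157, 174 and 173 CPM in saline and 274 to 579 CPM after treatment with a median of 376 (1.26, SE 0.28, edgeR adjusted p 0.187). Col5a1 had 103, 76.0 and 89.3 CPM in saline and 133 to 274 CPM after treatment (1.10, SE 0.27), and Col6a2 differed by 0.84 (SE 0.27). The list median was 0.56 without B3638 and 0.93 without A3688, where 11 members were higher at an unadjusted p under 0.05 (5.11% of all genes in that fit), and DESeq2 called 4 members higher.

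Matrix metalloproteases, which cut collagens and proteoglycans, showed larger differences with more spread. Mmp3 had 6.75, 4.10 and 0.780 CPM in saline and 16.5 to 164 CPM after treatment with a median of 89.0 (4.48, SE 0.98, edgeR adjusted p 0.187). The macrophage elastase Mmp12 had 12.9, 18.3 and 3.17 CPM in saline and 42.0 to 261 CPM after treatment (3.48, SE 0.76). Mmp13, the collagenase of cartilage and bone, overlapped through tumor B3684 (22.9 CPM against 25.4 CPM in A3685) and reached 724 CPM in C3519.

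Among higher genes without overlap, Col2a1, the main collagen of cartilage, had the smallest p after Hist1h2bc. It had 9.38, 14.2 and 21.3 CPM in saline and 141 to 799 CPM after treatment with a median of 244 (4.63, SE 0.73, edgeR adjusted p 0.0591). All 6 treated tumors were above saline, and all 3 NanoTLZ tumors (298, 628 and 799 CPM) were above the 3 i.v. TLZ tumors (191, 176 and 141 CPM). The cartilage proteoglycan Acan had 0.401, 12.5 and 1.84 CPM in saline and 5.36 to 274 CPM after treatment, with overlap at B3700 (4.74, SE 1.29). The rest of the cartilage list did not follow, with a median of -0.05 and 9 of 20 genes above 0, and Chst11, which sulfates chondroitin, was lower without overlap (-1.17, SE 0.27).

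The remaining genes among the 15 higher ones with the smallest p, none of them called, had edgeR adjusted p from 0.0851 to 0.187. Tspan17, a tetraspanin that accompanies the protease ADAM10, had 20.6, 21.4 and 9.18 CPM in saline and 49.5 to 82.0 CPM after treatment (1.91, SE 0.32). The zinc transporter Slc39a13 had 16.7 to 30.3 CPM in saline and 55.3 to 114 CPM after treatment, and Slc22a4, the ergothioneine transporter, 1.24 to 1.88 and 4.53 to 16.3 CPM. Vcam1, the adhesion molecule that binds leukocyte integrins, had 2.75, 7.29 and 3.26 CPM in saline and 9.62 to 33.0 CPM after treatment (2.17, SE 0.47). Habp4, Card19, the scaffold gene Whrn and the noncoding RNA 2610307P16Rik completed the group with fold changes of 1.09, 1.51, 2.59 and 1.37.

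**Figure D3:**
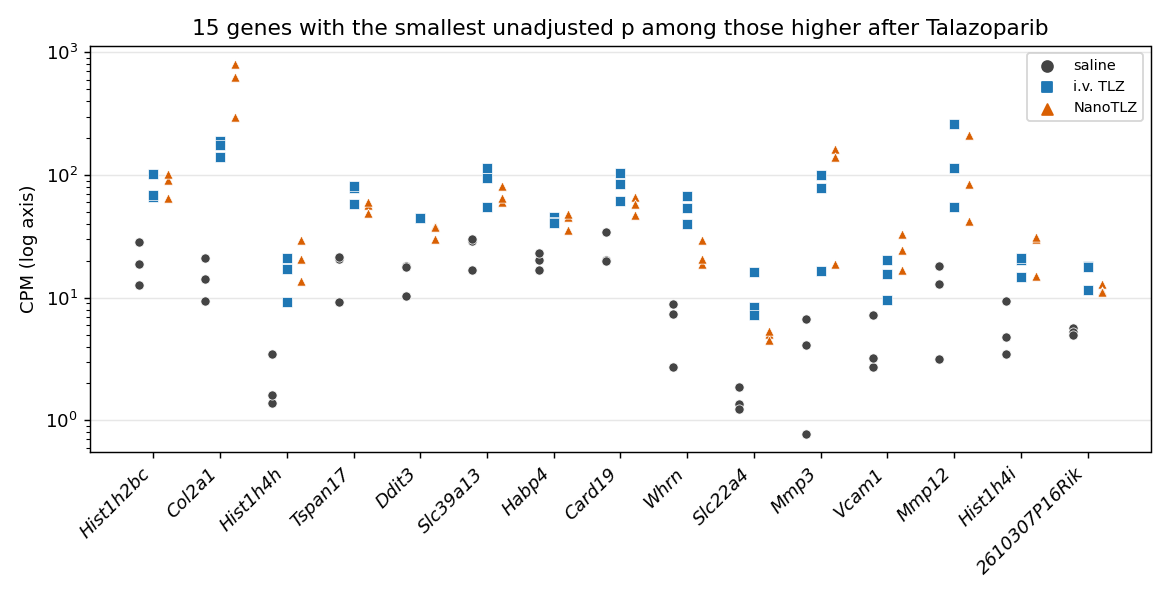
Levels in CPM on a log axis of the 15 genes with the smallest unadjusted p among those higher after Talazoparib, with circles for saline, squares for i.v. TLZ and triangles for NanoTLZ. Only genes whose 6 treated tumors lie above the 3 saline tumors were eligible, so that separation holds by choice. For Col2a1 the NanoTLZ tumors lie above the i.v. TLZ tumors.

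Immune cell lists had positive medians, with wide spread between tumors. B and plasma cell genes had a median of 3.18 over 13 of 22 genes (10 above 0, 6 at an unadjusted p under 0.05), which was 0.69 without C3519, 0.83 without B3638 and 1.06 without C3698. The B cell receptor chain Cd79a had 0.172, 0.0953 and 0.275 CPM in saline and 0.437 to 4.04 CPM after treatment, without overlap (3.18, SE 0.84, edgeR adjusted p 0.213). The immunoglobulin A heavy chain Igha had 1.14, 5.19 and 0.459 CPM in saline, 114 CPM in B3638, 116 CPM in C3519, 46.8 CPM in C3698 and at most 3.84 CPM in the other 3 treated tumors. Plasma cell RNA was thus high in 3 of the 6 treated tumors, from both formulations.

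T and NK cell genes had a median of 1.18 (21 of 24 above 0, 4 at an unadjusted p under 0.05). It ranged from 0.82 without A3688 to 1.66 without A3685. Foxp3, the factor of regulatory T cells, was above saline in every treated tumor at levels of 0.271 to 0.818 CPM against 0.0918 to 0.229 CPM. Values this low rest on few reads, and Foxp3 was not called (1.86, SE 0.62, edgeR adjusted p 0.245). Macrophage and dendritic cell genes had a median of 0.70 (25 of 29 above 0), or 0.49 without A3673, 0.49 without A3688 and 1.28 without A3685. Mertk, a receptor by which macrophages take up dying cells, had 10.6, 10.4 and 6.15 CPM in saline and 13.8 to 23.4 CPM after treatment (1.02, SE 0.30). The lysozyme gene Lyz2 had 192, 1573 and 406 CPM in saline and 1144 to 3642 CPM after treatment, so that A3685 fell within the treated range.

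Antigen presentation genes of MHC class I and II all had a fold change above 0 (21 of 21, median 0.71), although 1 had an unadjusted p under 0.05, and the median was 0.33 without C3698 and 0.39 without A3688. Interferon response genes had a median of 0.63 (23 of 31 above 0), or 0.35 without A3688, with Ifit1 at 1.03 to 1.81 CPM in saline and 2.43 to 7.30 CPM after treatment (1.59, SE 0.48). Chemokines, cytokine receptors and checkpoints had a median of 0.96 (21 of 25 above 0), or 0.51 without A3688. In the interferon list, Ccl5, which attracts T cells, did not overlap between groups (1.66, SE 0.66), by a small margin over A3685 (10.4 against 10.1 CPM). Cxcl12, the ligand of CXCR4, had 5.49, 2.67 and 6.47 CPM in saline and 17.1 to 24.7 CPM in 5 treated tumors, with B3700 at 5.68 CPM. Neutrophil genes (0.10 over 16, from -0.43 without A3688 to 1.08 without A3685), endothelial and pericyte genes (0.34 over 23) and adipocyte genes (0.30 over 15) lay nearer to the median of all genes.

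Among signaling genes the lists were mixed. The Wnt, Notch and TGF-beta list had a median of -0.04 over 49 genes. Tnfrsf19, a Wnt target also called TROY, had 17.6, 15.7 and 31.7 CPM in saline and 1.41 to 6.79 CPM after treatment (-2.27, SE 0.46, edgeR adjusted p 0.165). The Notch ligand Jag1 had 53.9, 67.4 and 37.7 CPM in saline and 68.8 to 206 CPM after treatment (1.21, SE 0.39). Among growth factors and receptors (median 0.17 over 27), Pdgfb, a mitogen of pericytes and fibroblasts, had 107, 165 and 91.8 CPM in saline and 166 to 318 CPM after treatment (1.06, SE 0.29). The neurotrophin receptor Ngfr had 1.14, 1.72 and 1.65 CPM in saline and 3.73 to 48.5 CPM after treatment (3.73, SE 0.89), in a Schwann cell and nerve list with a median of 0.02 over 11, or 0.56 without A3688.

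Apoptosis and survival genes had a median of 0.01 over 22. Xiap, an inhibitor of caspases, had 148, 93.2 and 124 CPM in saline and 62.6 to 86.7 CPM after treatment (-0.68, SE 0.20, edgeR adjusted p 0.228). The survival gene Bcl2l1 lay on the other side at 0.80 (SE 0.29), or 0.51 without A3688, without overlap. The AP-1 member Fosl1, in an immediate-early list with a median of 0.20 over 21, had 15.7, 27.9 and 2.43 CPM in saline and 33.9 to 67.7 CPM after treatment. The medians of the other lists were 0.19 over 26 genes for glycolysis and hypoxia, -0.10 over 30 for oxidative phosphorylation and 0.12 over 5 for skin keratinocytes. Epithelial-mesenchymal transition genes had a median of 0.54 over 14, with 11 above 0.

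The drug efflux list had a median of 0.78 over 6 genes, which ranged from -0.054 without B3684 to 0.97 without A3685. Abcc3 had at most 30.1 CPM in saline and 33.2 to 63.4 CPM after treatment, without overlap (0.95, SE 0.26, edgeR adjusted p 0.215). Abcb1a and Abcb1b encode the mouse P-glycoproteins, which export Talazoparib and related inhibitors. Abcb1a had 0.973, 1.95 and 2.34 CPM in saline, 68.9 CPM in i.v. TLZ tumor B3684, 13.3 CPM in NanoTLZ tumor C3669 and 1.46 to 3.57 CPM in the other 4 treated tumors. Abcb1b followed in the same tumors with 90.8 and 16.5 CPM against 3.57 to 5.44 CPM, and the saline tumors spanned 2.23 to 20.6 CPM. The list result for these 2 genes was therefore a property of 1 or 2 of the 6 treated tumors.

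**Figure D4:**
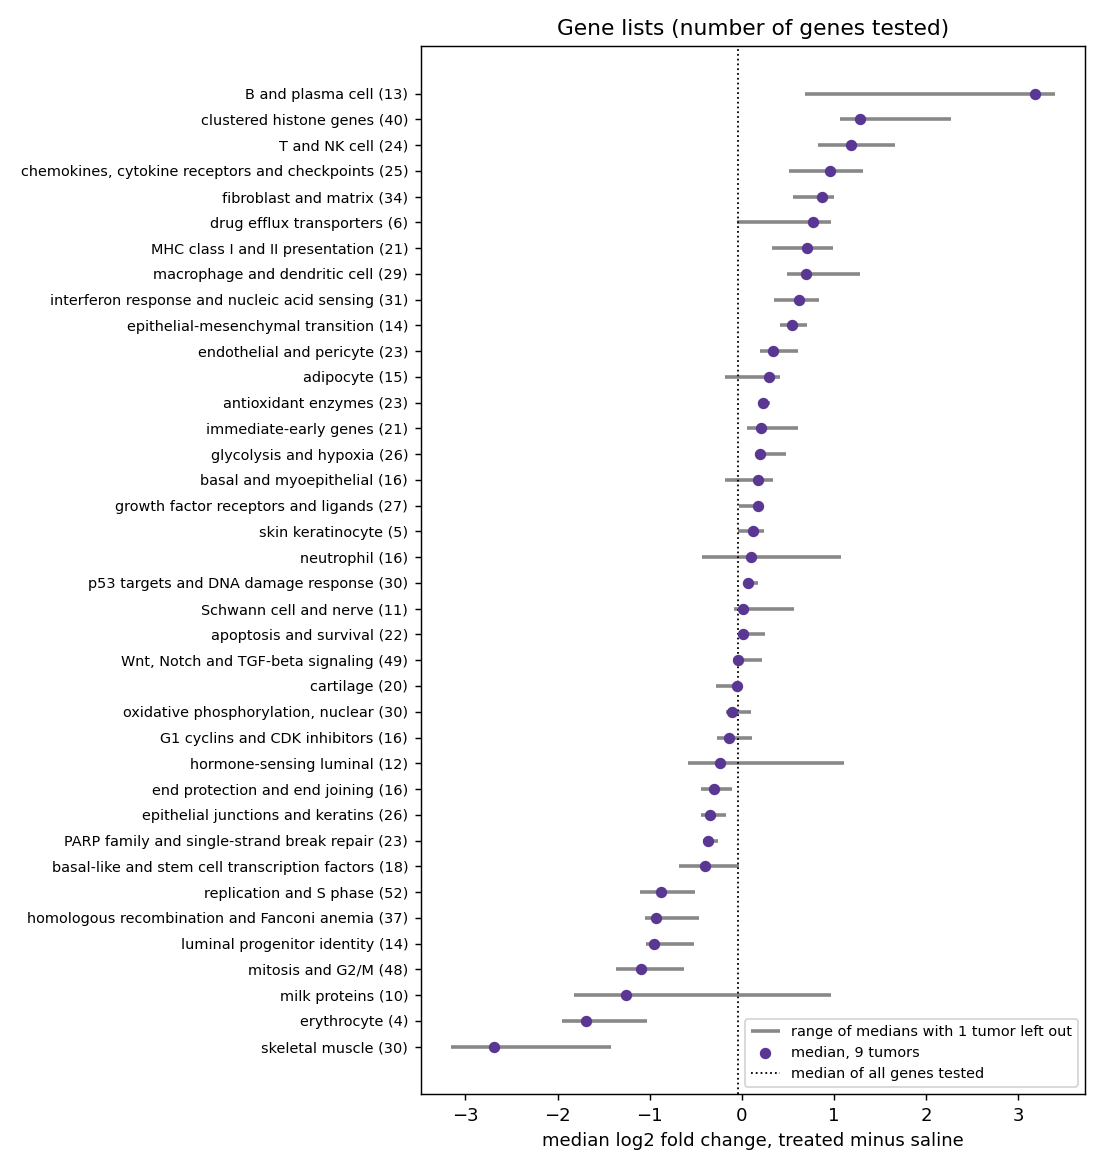
Median log2 fold change (treated minus saline) of each gene list with 9 tumors (points) and the range of medians with 1 tumor left out (bars); the number of genes tested is in brackets and the dotted line is the median of all genes, -0.04. Skeletal muscle lies lowest at -2.68 and B and plasma cells highest at 3.18 with a bar that reaches down to 0.69, and the bars of milk protein and hormone-sensing genes cross 0.

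Some tumors differed from the others along stretches of a chromosome, which bears on genes named above. Each gene's log2 level was set against its median over the 9 tumors, for 11992 genes with an average log2 CPM above 2, and the median over the genes of a chromosome was taken in each tumor. On chromosome 13 (428 genes) this median was -0.60 in A3685 and 0.60 in A3688, against -0.14 to 0.10 in the other 7 tumors. A3688 also exceeded 0.4 on chromosomes 5, 6, 10 and X and was below -0.4 on chromosome 17. Among treated tumors B3684 had -0.78 on chromosome 16 and 0.41 on chromosome 7, and B3700 had -0.43 on chromosome 3. The 3 NanoTLZ tumors and B3638 passed 0.4 on no chromosome.

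Of the 15 higher genes named above, 7 lie on chromosome 13 (the 3 histones, Tspan17, Habp4, Card19 and 2610307P16Rik), which holds 3.76% of the genes tested with a position. Of the 591 genes tested there, 10.3% were higher at an unadjusted p under 0.05, and the median fold change was 0.03, or 0.48 without A3688. A3685 was the lowest saline tumor for Hist1h4h and Habp4. A3688 was the lowest for Hist1h2bc, Tspan17, Card19, Hist1h4i and 2610307P16Rik, although its chromosome 13 was high.

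In windows of 10 Mb, a stretch stood far above the other tumors in B3684. On chromosome 9 from 0 to 10 Mb (25 genes) its median deviation was 3.07, against -0.80 to 0.37 in the other tumors. Yap1, Dync2h1, Cep126 and Birc3 were named after their values were seen.

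NanoTLZ tumor C3519 shared part of this stretch. From Dync2h1 (chr9:6928503-7184446) to Cep126 (chr9:8076461-8134294) genes outside the metalloproteases were high in both tumors. In C3519 the nearest genes on either side of this part lay within the range of the other tumors. Farther along, from 10 to 20 Mb (22 genes), the median deviation in C3519 was 1.06, against -0.37 to 0.64 in the other tumors. Yap1, the growth regulator of the Hippo pathway, had 1294 CPM in B3684 and 1737 CPM in C3519, against 70.1 to 277 CPM in the other 7 tumors. The inhibitors of apoptosis Birc2 and Birc3 had 252 and 407 CPM in B3684 and 454 and 764 CPM in C3519, against at most 67.0 and 70.7 CPM elsewhere. Their pooled fold changes of 2.29 and 2.49 thus came from 2 of the 6 treated tumors, 1 of each formulation.

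Mmp3, Mmp12 and Mmp13 lie inside the stretch shared by both tumors. In this order they had 78.0, 54.9 and 22.9 CPM in B3684 and 164, 211 and 724 CPM in C3519. In the 4 treated tumors whose Yap1 was not high, Mmp3 had 16.5 to 140.1 CPM, Mmp12 had 42.0 to 261 CPM and Mmp13 had 75.0 to 421 CPM. The saline tumors had at most 6.75, 18.3 and 25.4 CPM. DNA copy number was not measured here, and its part in these levels was not tested. The P-glycoprotein genes Abcb1a and Abcb1b are neighbours on chromosome 5, and nearby genes on both sides of them lay within the range of the other tumors in B3684 (Slc25a40 at 9.68 CPM against 6.76 to 26.8 CPM in the other tumors, and Crot at 46.9 against at most 74.2 CPM).

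**Figure D5:**
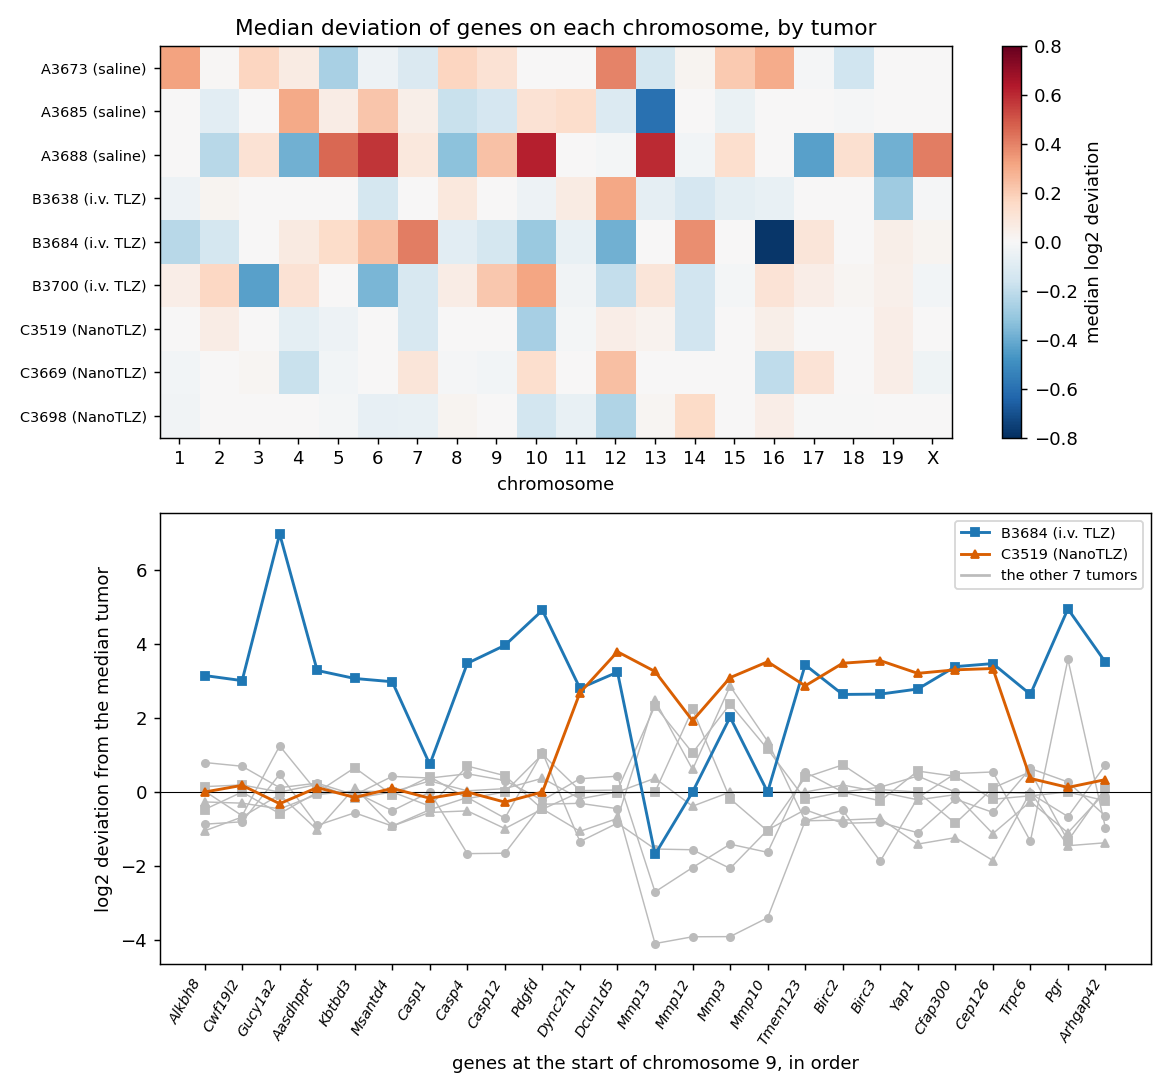
Upper panel, median log2 deviation of genes on each chromosome (columns) in each tumor (rows), with red above and blue below the median tumor; lower panel, log2 deviation of 25 genes at the start of chromosome 9 in order, with B3684 and C3519 in color. Chromosome 13 is at -0.60 in A3685 and 0.60 in A3688, and B3684 and C3519 lie together above the other 7 tumors around Birc2, Birc3 and Yap1.

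Set side by side, the formulations gave these list medians against the same 3 saline tumors, which both comparisons share. In the order i.v. TLZ, NanoTLZ, the medians were -1.10 and -1.12 for mitosis, -0.89 and -0.84 for replication, -0.99 and -0.91 for homologous recombination, -2.62 and -2.97 for skeletal muscle, 0.91 and 0.73 for fibroblasts and matrix, and 1.42 and 1.13 for histones. Among immune lists they were 2.87 and 2.84 for B and plasma cells, 0.46 and 1.58 for T and NK cells, 0.46 and 0.86 for macrophages, 0.40 and 0.87 for antigen presentation and 0.022 and 0.20 for neutrophils. Drug efflux genes had 1.04 and 0.15, and hormone-sensing genes 0.17 and -0.51. The pooled median of the efflux list was -0.054 without i.v. TLZ tumor B3684, and that of the hormone-sensing list was 1.11 without A3688. With 3 tumors in a group edgeR called 0 genes for the free drug (0.0%; 777 higher and 866 lower at an unadjusted p under 0.05, and 100 and 94 called by DESeq2). For NanoTLZ it called Col2a1 (0.00632%), which rose by 5.26 (SE 0.49, edgeR adjusted p 0.0127).

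Tested directly, 0 of 15821 genes differed between NanoTLZ and i.v. TLZ (0.0%), with 71 higher and 195 lower at an unadjusted p under 0.05, and DESeq2 called 1 higher and 2 lower. Among the genes named here 4 had an unadjusted p under 0.05. Col2a1 was higher after NanoTLZ by 1.76 on the log2 scale (SE 0.42, unadjusted p 0.00183 in edgeR), and Top2a by 0.70 (SE 0.29, unadjusted p 0.0376). Whrn and Slc22a4 were lower after NanoTLZ by differences of -1.21 (SE 0.43) and -1.09 (SE 0.44). None passed the adjustment, which does not show that the formulations act alike.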

How the data were processed

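RNA sequencing of 9 mammary tumors was analysed, 3 per group. Counts in the deposited table are whole reads for each gene, not normalized by the authors, and the submitters' processing notes name TopHat2, DESeq2 and mm10. The counting program, annotation and strand setting are not given in the sources used here. The table lists 35275 genes, of which 34490 matched GENCODE M21 of GRCm38.

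Genes were kept by filterByExpr (minimum count 10, minimum total 15), normalized by TMM and fitted with estimateDisp and glmQLFit in edgeR 4.0.16 under R 4.3.3, with 1 term for treated against saline. The Benjamini-Hochberg adjustment ran over 15821 genes. Each tumor was 1 replicate, and p-values set the difference between groups against the spread of tumors within them. In the pooled fit that spread includes any difference between the formulations. The formulations were fitted as 3 groups. The depth per tumor leaves low genes imprecise, and a count interval covers counting error only. The script for testing was tested on simulated data. Alternatives were DESeq2 1.42.0 with and without its Cook's distance filter, limma-voom 3.58.1, other normalizations, other filters, robust dispersion, a 3-group fit and each tumor left out.

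The genes named were all called genes, up to 15 per direction by smallest unadjusted p without overlap and with an average log2 CPM above 0, Parp1, Parp2, Brca1, Trp53, and up to 4 members of smallest p in each of 37 gene lists. Mki67, Cdk1, Ccnb2, Mcm6, Cdc6, Birc3, Col6a2, Hist1h2ap, Hist1h2ao, the clustered histone list and the genes and medians along chromosomes were named after their values were seen. Members and lists were chosen with earlier results of these data known. Figures used Python 3.11.15 and matplotlib 3.10.9. No labels give a sequencing batch. Some items are not reported here.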

Additional observations from a re-analysis of the deposited data

Results flagged for a closer look

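In the 6 treated tumors, 14 of 110 genes examined had 1 tumor far from the other 5 by Dixon's criterion. For independent, normally distributed values such a gap arises in about 1 in 20 groups. The criterion was applied to CPM without a log, and the genes were selected and not independent. The number of flagged genes is therefore not to be read against that rate. The values of Pvalb and Xirp2 below rest on 2 and 3 reads. Tumor B3684 had 68.9 CPM of Abcb1a (others 1.46 to 13.3), 90.8 CPM of Abcb1b (others 3.57 to 16.5), 463 CPM of the tumor suppressor gene Cdkn2a (others 48.0 to 175), 122 CPM of the p27 gene Cdkn1b (others 61.6 to 77.7) and 0.109 CPM of Pvalb, where the others had none. In B3638 the values were 269 CPM of the myelin and lymphocyte gene Mal (others 20.2 to 36.1), 16.3 CPM of Slc22a4 (others 4.53 to 8.42), 13.4 CPM of Hbb-bs (others 0.626 to 4.76) and, on the low side, 19.2 CPM of Hpf1 (others 32.6 to 38.9).

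Tumor B3700 had 72.9 CPM of Krt5 (others 2.30 to 11.7), 34.3 CPM of Ccnb2 (others 10.4 to 19.1) and 0.162 CPM of Xirp2 (others up to 0.0546). Tumor C3519 had 108 CPM of Trp53 (others 29.4 to 38.9) and 10.5 CPM of Greb1, an estrogen-regulated gene (others 0.920 to 3.06 CPM, saline 0.138 to 0.801 CPM). By tumor the counts of such genes were 5 in B3684, 4 in B3638, 3 in B3700 and 2 in C3519, and C3669 and C3698 had none. No gene named differed between the formulations at an adjusted p under 0.05.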

How the results depend on the processing

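Of the 110 genes examined, 104 kept their direction in each of 18 alternatives, 9 of which left out 1 tumor. The pooled fit called 0 higher and 6 lower genes. DESeq2 called 190 and 177, or 223 and 277 without its Cook's distance filter, limma-voom 0 and 0, the mean of both treated groups in a 3-group fit 1 and 2, no filter on low counts 3 and 18, and keeping genes with 10 counts or more in each tumor 0 and 0. Other normalizations and robust dispersion gave 0 and 6. With 1 tumor left out the counts ranged from 0 to 7 higher and from 0 to 35 lower genes. By formulation DESeq2 called 194 genes for i.v. TLZ, 109 for NanoTLZ and 3 between them, where edgeR called 0, 1 and 0.

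With 1 tumor left out, 6 genes changed direction. Without B3684 this was the log2 fold change of Abcb1b (range -0.44 to 2.56). Without A3688 they were the log2 fold change of Id4 (-4.32 to 1.68), the log2 fold change of Krt5 (-6.50 to 2.16), the log2 fold change of Parp2 (-0.32 to 0.29) and the log2 fold change of Trp63 (-2.81 to 0.32). Without C3519 it was the log2 fold change of Trp53 (-0.077 to 0.66). The median kept its sign in 25 of 38 lists, among them muscle, mitosis, replication, homologous recombination, fibroblasts, histones and the T cell, B cell and macrophage lists. It changed sign in 13, among them milk proteins, hormone-sensing and basal cells, neutrophils, efflux and G1 cyclins. The cause was not tested. No paired analysis was possible because the labels give tumors of different mice with numbers that pair no saline with treated tumors. With 3 saline tumors, differences that are small against their spread could be missed.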
